A study of Homo sapiens with 9 samples.

Results

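The 9 genes described here encode the proteins that build and degrade glycogen: UGP2, PGM1, GYG1, GYS1, GYS2, GBE1, PYGL, PYGB and PPP1R3C. They were taken as a list of named genes, with no threshold on their values, from the 19317 genes of the deposited table, and each was found in it. They were measured by RNA sequencing in 3 groups of 3 samples of HepG2, a long-established line of human liver cancer cells. The control group (WT) was kept in RPMI medium. The lipogenic group (DNL, for de novo lipogenesis) was kept in DMEM with insulin at 10 µg/ml and the liver X receptor agonist T0901317 at 10 µM for 1 week. The oleic acid group (OA) was kept in DMEM with 25 µM oleic acid, dissolved in albumin at 11%, for 6 hours. Serum at 10% and antibiotics at 1% were in every medium, and the genotype label is wild type for all 9 samples. All samples come from 1 cell line, no group had DMEM or albumin alone, and medium, added compounds and duration therefore cannot be told apart. No label says that the samples of a group were separate cultures, so p-values refer to the spread among the deposited samples only, and this spread may be technical. The protocol text shared by all samples gives only the DNL treatment, and the groups follow each sample's own labels.

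Glycogen is a branched polymer of glucose that hepatocytes lay down after a meal and break down between meals. PGM1 interconverts glucose 6-phosphate and glucose 1-phosphate, UGP2 activates the latter to UDP-glucose, glycogenin (GYG1) primes the chain, glycogen synthase (GYS1 in muscle and most tissues, GYS2 in liver) extends it, and the branching enzyme GBE1 adds the branch points. Glycogen phosphorylase (PYGL in liver, PYGB in brain, PYGM in muscle) removes glucose units. PPP1R3C, also called protein targeting to glycogen, brings protein phosphatase 1 to the particle, where it activates the synthase and inactivates the phosphorylase. GYS1, GBE1 and PPP1R3C are known targets of the hypoxia-inducible factors (HIF), which bind DNA at the core letters ACGTG or GCGTG.

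The stretch upstream of the transcript start is shown for 4 members whose window lies almost wholly outside annotated exons: PPP1R3C, the member with the largest difference between groups, UGP2 and GYS1, which were higher in DNL than in WT, and PYGB, which was lower. Each is 250 bases long, ends at the base before the start, and comes from RefSeq on GRCh38.p14. Capitals mark ACGTG and GCGTG on either strand (CACGT and CACGC when read on the opposite strand). The windows are chr10:91633072-91633321 on the minus strand for PPP1R3C, chr19:48993310-48993559 on the minus strand for GYS1, chr2:63840719-63840968 on the plus strand for UGP2 and chr20:25247835-25248084 on the plus strand for PYGB.
PPP1R3C: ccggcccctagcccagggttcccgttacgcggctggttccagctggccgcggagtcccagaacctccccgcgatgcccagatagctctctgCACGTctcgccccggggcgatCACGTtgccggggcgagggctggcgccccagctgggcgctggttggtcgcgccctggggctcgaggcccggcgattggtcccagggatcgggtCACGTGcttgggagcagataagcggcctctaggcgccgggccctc
GYS1: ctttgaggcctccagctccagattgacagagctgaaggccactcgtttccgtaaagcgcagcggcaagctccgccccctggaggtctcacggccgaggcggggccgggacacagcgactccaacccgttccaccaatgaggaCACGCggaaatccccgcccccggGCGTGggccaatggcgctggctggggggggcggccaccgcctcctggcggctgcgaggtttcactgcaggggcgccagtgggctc
UGP2: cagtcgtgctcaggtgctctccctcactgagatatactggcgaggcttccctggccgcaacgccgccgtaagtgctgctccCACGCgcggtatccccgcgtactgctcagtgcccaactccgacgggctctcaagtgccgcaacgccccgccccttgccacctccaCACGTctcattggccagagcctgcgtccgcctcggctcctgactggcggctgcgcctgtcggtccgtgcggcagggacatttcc
PYGB: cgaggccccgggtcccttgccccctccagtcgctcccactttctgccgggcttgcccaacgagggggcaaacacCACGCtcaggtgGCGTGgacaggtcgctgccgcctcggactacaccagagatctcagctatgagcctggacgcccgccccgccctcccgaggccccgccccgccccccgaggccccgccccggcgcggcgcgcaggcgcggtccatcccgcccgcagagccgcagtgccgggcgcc
The PPP1R3C window held 4 core matches, all ACGTG, of which the pair nearest the start overlap in the palindrome CACGTG (bases -45 to -40). The letters CACGTG, also called an E-box, were searched too. Of the members, they were in the PPP1R3C and GYG1 windows, beside 6.34% of all windows. GYS1, UGP2 and PYGB held 2 each, among them 1 ACGTG in UGP2 and none in GYS1 or PYGB. RefSeq windows were available for 8 of the 9 members, at 11 starts, and GYS2 had no entry. Of these 11 windows, 8 held at least 1 core match, beside 43.2% of all 35116 windows of this length (18.5% for ACGTG and 32.2% for GCGTG). The 2 figures were not matched for base composition: both cores contain CG, and the member windows had 51.2% to 77.2% G and C. PGM1 gave 3 of the windows and UGP2 2, and the GBE1 and PYGL windows lay wholly in annotated exons. The PYGL window held none. The repeat bound by the liver X receptors, 2 copies of AGGTCA in the same direction with any 4 bases between them, was in 0 member windows and in 0.0142% of all windows, and the FOXO letters TGTTTAC, searched like the others on both strands, were in 1 PGM1 window and in 2.98% of all. A match describes letters, not binding.

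**Figure D1:**
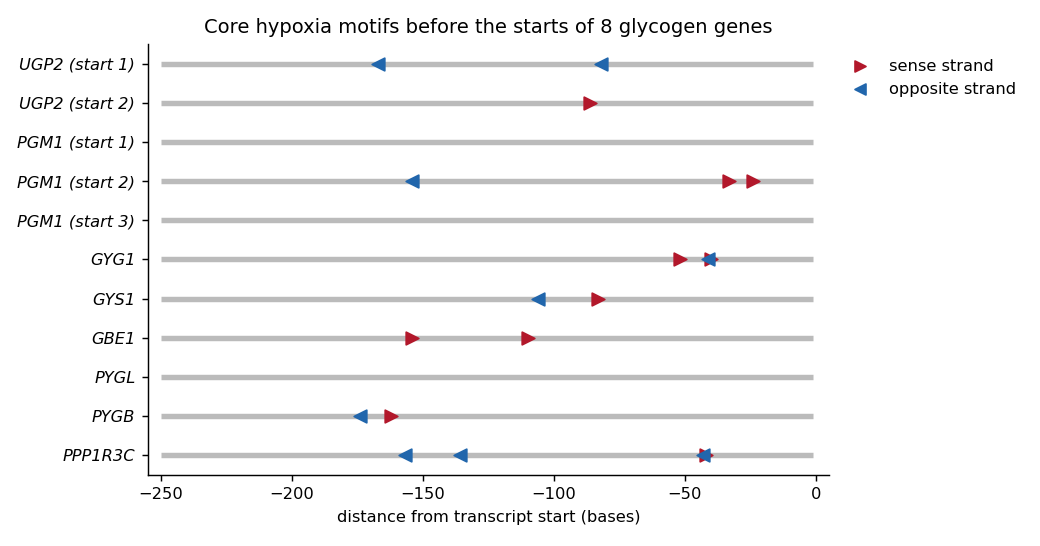
Positions of the letters ACGTG and GCGTG in the 250 bases before each RefSeq transcript start of 8 glycogen genes (x axis, distance from the start in bases). Triangles point right for the sense strand and left for the opposite strand. PPP1R3C holds 4 matches, the most of any window, and PYGL holds 0.

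The libraries held 7836520 to 43043347 estimated counts, with OA replicate 3 the shallowest and OA replicate 1 next at 11718173. All 12 hepatocyte markers examined were at 1 CPM or more (counts relative to library size, with sizes scaled by TMM, the trimmed mean of M values) in each group. Their summed level was 43800 to 45500 CPM in WT, 77600 to 79700 in DNL and 14400 to 16400 in OA. Of 6 fibroblast and stellate markers, 2 reached 1 CPM in WT and 2 in DNL, with sums of 10.8 to 14.9 and 3.16 to 3.39 CPM and with COL1A2 and LUM at 0. In OA 5 of 6 did, with an uneven sum of 36.7 to 875 CPM, led by COL1A1 at 19.3, 85.0 and 537 CPM in replicates 1, 2 and 3. The list did not move as a whole. Of the 5 tested in OA against WT, 2 were called higher (COL1A1 and COL3A1) and 1 lower, beside 60.0% of all genes called. The lower one, PDGFRB, averaged 9.926 CPM in WT, 1.035 in DNL and 4.773 in OA. Values of the glycogen genes without OA replicate 3 are given with the OA results. Of 6 skeletal muscle markers, the cells in which GYS1 and PYGM are best known, 2, 0 and 2 reached 1 CPM in WT, DNL and OA. MYOD1 and TNNT3 were at 0 in all 9 libraries, and the sums were 11.9 to 13.6, 0.748 to 1.80 and 6.16 to 8.08 CPM. Among macrophage and leukocyte markers CD163 was at 0 in every library, and the sums of 979 to 990 CPM in WT, 1620 to 1710 in DNL and 1060 to 1090 in OA were mostly LYZ. Cholangiocyte markers summed to 459 to 475 CPM in WT, 844 to 954 in DNL and 802 to 955 in OA, with CFTR at 0 in every library. Different genes led these sums: SOX9 averaged 319.7, 661.5 and 254.2 CPM in WT, DNL and OA, and KRT19 92.2, 150.5 and 551.3 CPM. Another marker of this list, KRT7, was at 0 in WT and DNL and at 0.474, 1.48 and 8.19 CPM in OA replicates 1, 2 and 3. Endothelial markers summed to 1.54 to 1.96 CPM in WT, 5.30 to 6.92 in DNL and 0.955 to 2.38 in OA. Astrocyte and neuron markers summed to 464 to 476 CPM in WT, 255 to 278 in DNL and 297 to 335 in OA, mostly SLC1A2, with SNAP25 at 0. The part of these marker differences in the glycogen values was not tested. In bulk RNA, fewer cells that express a gene and less of its RNA per cell cannot be told apart.

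Of the 9 members, 8 passed the filter on low counts and were tested. GYS2, the liver form of the synthase (ENSG00000111713, chromosome 12, 21536189 to 21604847, GRCh38), was at 0 estimated counts in all 9 libraries. A count of 0 allows a level of up to 0.0691 CPM in WT replicate 1, the deepest, and up to 0.356 CPM in OA replicate 3, for counting error only. In GENCODE release 29 a same-strand protein-coding gene, not analysed here, shares 2742 exonic bases with GYS2, so how the estimator assigned shared reads can also bear on this value. The only synthase with counts was thus GYS1.

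In DNL against WT, 6 of the 8 tested members were higher, 1 was lower and 1 did not pass the test (edgeR quasi-likelihood test, Benjamini-Hochberg adjusted p under 0.05 over 13636 genes). The median log2 fold change over the 8 was 0.51, against -0.018 over all genes. Of all genes tested, 53.8% were called in this comparison, 27.1% higher and 26.8% lower. The 3 libraries of each group did not overlap for 7 of the 8 members, as for 64.7% of all genes. The members that rose were UGP2, GYG1, GYS1 and GBE1 of synthesis, PYGL of breakdown and the regulator PPP1R3C. PYGB fell.

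**Figure D2:**
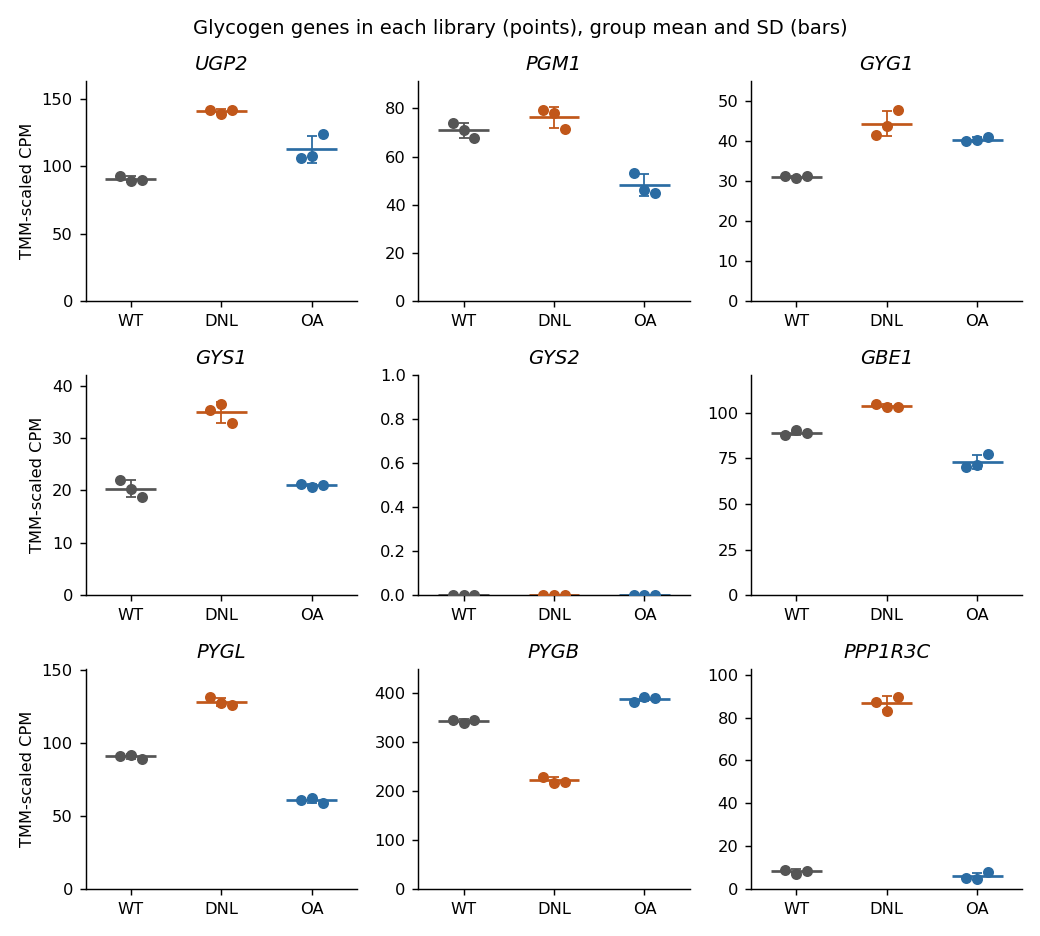
Level of each of the 9 glycogen genes (y axis, TMM-scaled CPM) in the 3 libraries of WT, DNL and OA (points), with the group mean (line) and SD (error bar). PPP1R3C lies between 83.0 and 89.4 CPM in DNL and at 9.05 CPM or less elsewhere, PYGL and PYGB move in opposite directions, and GYS2 is at 0 in every library.

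PPP1R3C (chromosome 10, 91628442 to 91633054) measured 9.05, 7.08 and 8.56 CPM in WT, 87.3, 83.0 and 89.4 CPM in DNL and 4.90, 4.84 and 7.84 CPM in OA. DNL stood apart from both other groups, whereas OA replicate 3 lay inside the WT range. The rise from 8.23 ± 1.03 to 86.6 ± 3.24 CPM (SD, n = 3) was 10.5-fold, a log2 fold change of 3.39 (SE 0.13, adjusted p = 6.83e-10). In OA the mean was 5.86 ± 1.71 CPM, and the gene was called lower than in WT (log2 fold change -0.58, SE 0.16, adjusted p = 0.00657). That call was lost without OA replicate 2 (log2 fold change -0.42, adjusted p = 0.0666) and when OA and WT were fitted alone (-0.51, adjusted p = 0.0568). Without OA replicate 3 it was -0.77 (adjusted p = 0.000182). DNL exceeded OA 15.7-fold (log2 fold change 3.97, SE 0.15, adjusted p = 2.33e-10).

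GYS1, the synthase (chromosome 19, 48968125 to 48993310), measured 22.0, 20.3 and 18.8 CPM in WT, 35.3, 36.6 and 32.8 CPM in DNL and 21.2, 20.7 and 21.1 CPM in OA. All DNL libraries were above all others, and OA lay within the WT range. The DNL rise was 1.71-fold (log2 fold change 0.77, SE 0.081, adjusted p = 4.16e-06). OA against WT did not pass the test (log2 fold change 0.04, SE 0.085, adjusted p = 0.699), and it was 0.036 without OA replicate 3 and -0.018 without WT replicate 3. The test of DNL against OA gave 0.73 (SE 0.085, adjusted p = 6.23e-06).

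UGP2, which makes the UDP-glucose that the synthase uses (chromosome 2, 63840940 to 63891562), measured 92.9, 89.4 and 89.8 CPM in WT, 142, 139 and 142 CPM in DNL and 106, 108 and 124 CPM in OA. The groups did not overlap, in the order DNL, OA, WT. Its log2 fold change was 0.64 in DNL (SE 0.056, adjusted p = 7.61e-07) and 0.31 in OA (SE 0.057, adjusted p = 0.000436), or 0.24 in OA without replicate 3. The difference of DNL over OA (0.33, adjusted p = 0.000217) fell to 0.097 (adjusted p = 0.161) when libraries were scaled by their totals instead of TMM.

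GYG1, the glycogenin that starts each chain (chromosome 3, 148991341 to 149027668), measured 31.1, 30.6 and 31.1 CPM in WT, 41.4, 43.7 and 47.7 CPM in DNL and 39.8, 40.1 and 40.9 CPM in OA. Both treated groups lay above WT and next to each other. The log2 fold changes were 0.52 in DNL (SE 0.066, adjusted p = 2.34e-05) and 0.38 in OA (SE 0.068, adjusted p = 0.000326), and OA without replicate 3 gave 0.37. DNL and OA did not differ by the test (0.14, SE 0.068, adjusted p = 0.0924), although this passed without DNL replicate 1 (0.19, adjusted p = 0.0412), and scaling by totals gave -0.093.

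GBE1, the branching enzyme (chromosome 3, 81489699 to 81762161), measured 87.7, 90.3 and 88.7 CPM in WT, 105, 103 and 103 CPM in DNL and 70.1, 71.3 and 77.2 CPM in OA. DNL was highest and OA lowest, with no overlap. The DNL rise was small (log2 fold change 0.22, SE 0.049, adjusted p = 0.00226) and was not called under scaling by library totals (0.051, adjusted p = 0.417). The OA fall was -0.29 (SE 0.050, adjusted p = 0.000257), and -0.33 without OA replicate 3.

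PGM1, the phosphoglucomutase at the branch to glycolysis (chromosome 1, 63593276 to 63660245), measured 73.8, 71.0 and 67.8 CPM in WT, 79.4, 78.2 and 71.3 CPM in DNL and 53.3, 46.2 and 44.9 CPM in OA. DNL overlapped WT, and OA was below both. DNL against WT did not pass the test (log2 fold change 0.11, SE 0.070, adjusted p = 0.22, and -0.060 when libraries were scaled by totals). OA fell by 0.56 on the log2 scale (SE 0.073, adjusted p = 2.18e-05), and by 0.52 without OA replicate 3. PGM1 shares 197 exonic bases with ITGB3BP on the opposite strand, which averaged at most 5.04 CPM in a group.

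The phosphorylases moved apart from each other. PYGL, the liver form (chromosome 14, 50857891 to 50944736), measured 91.2, 91.9 and 88.9 CPM in WT, 131, 127 and 126 CPM in DNL and 60.6, 62.1 and 58.9 CPM in OA. PYGB, the brain form (chromosome 20, 25248069 to 25298014), measured 345, 338 and 344 CPM in WT, 229, 217 and 219 CPM in DNL and 382, 391 and 390 CPM in OA. For both genes the 3 groups were fully separated, with PYGL highest and PYGB lowest in DNL. PYGL rose in DNL (log2 fold change 0.50, SE 0.045, adjusted p = 9.84e-07) and fell in OA (-0.58, SE 0.047, adjusted p = 2.74e-07). PYGB fell in DNL (-0.63, SE 0.036, adjusted p = 1.23e-08) and rose in OA (0.18, SE 0.036, adjusted p = 0.000711). Without OA replicate 3 the OA values were -0.56 for PYGL and 0.17 for PYGB. Both treatments are set against the same WT libraries, so these values are not independent. The direct test of DNL against OA gave 1.08 for PYGL (SE 0.047, adjusted p = 5.53e-10) and -0.81 for PYGB (SE 0.036, adjusted p = 6.52e-10). PYGL shares 180 exonic bases with an annotated antisense transcript that was not analysed here. PYGM, the muscle form, averaged at most 0.545 CPM in a group and was called in none of the 3 comparisons.

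Counts per kilobase of merged exons allow the forms to be compared with each other. PYGL made up 19.8% ± 0.413 of phosphorylase counts per kilobase in WT (SD, n = 3), with 19.8%, 20.2% and 19.4% in the replicates. In DNL it was 35.0% ± 0.291 (34.7%, 35.3% and 35.0%) and in OA 12.7% ± 0.308 (12.9%, 12.9% and 12.3%). The groups did not overlap, and the exact two-sided permutation p of each of the 3 comparisons was 0.1, the smallest that 3 samples against 3 allow. PYGB was the main form in all groups, at 80.1% in WT, 64.9% in DNL and 87.2% in OA. With the length of the longest annotated transcript the PYGL share was 26.4%, 43.9% and 17.5% in WT, DNL and OA, in the same order.

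**Figure D3:**
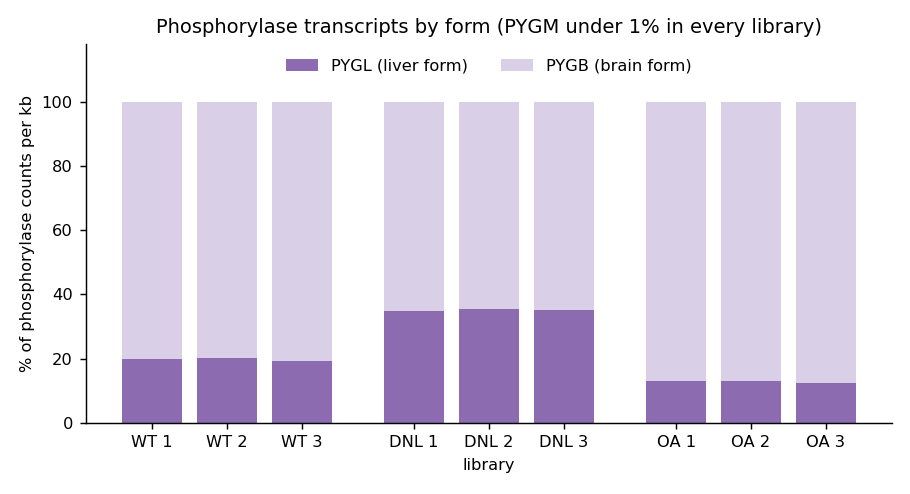
Share of PYGL (dark) and PYGB (light) in the summed counts per kilobase of the 3 phosphorylase genes (y axis, percent), 1 bar per library. PYGL takes 34.7% to 35.3% in the DNL libraries, 19.4% to 20.2% in WT and 12.3% to 12.9% in OA.

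Across the 8 members with counts, the order of levels per kilobase of merged exons in WT was PYGB (76.5 CPM per kb), PYGL (18.9), GBE1 (17.2), PGM1 (16.8), UGP2 (14.0), GYG1 (8.80), GYS1 (4.80) and PPP1R3C (3.26). Of these neighbours GBE1 and PGM1 overlapped between libraries. In DNL, PPP1R3C moved from the last place to the second, at 34.3 ± 1.28 CPM per kb, behind PYGB at 49.5 ± 1.53, and no neighbours overlapped. By the longest annotated transcript, PPP1R3C stood below PYGL (42.0 CPM per kb) in DNL. In OA it was last again (2.32 ± 0.679 CPM per kb), with PYGB at 86.7 and UGP2 at 17.3 CPM per kb at the top. GYG1 and PGM1 were the overlapping neighbours in OA. GYS1 was the lowest enzyme in all 3 groups by either length.

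In OA against WT, 3 tested members were higher (UGP2, GYG1, PYGB), 4 were lower (PGM1, GBE1, PYGL, PPP1R3C) and GYS1 did not pass, with a median log2 fold change of -0.12 against -0.029 over all genes. Of all genes tested, 60.0% were called here, 30.4% higher and 29.7% lower. The groups did not overlap for 6 of the 8 members and for 65.7% of all genes. In DNL against OA, 6 were higher, 1 was lower (PYGB) and GYG1 did not pass, with a median of 0.59. The share called over all genes was 62.8%, 31.9% higher and 30.9% lower. The groups did not overlap for all 8 tested members and for 66.2% of all genes. Most genes of these libraries thus passed the test, and a count of called members is read against that background. As a description, the mean log2 level of GYS1, GYS2, GYG1, GBE1 and UGP2 minus that of PYGL and PYGB was 0.49 higher in DNL than in WT (0.44 to 0.51 over the 3 libraries) and 0.28 higher in OA (0.24 to 0.35), on the log2(CPM + 1) scale. GYS2, at 0 in every library, is still counted in the synthesis mean, which makes the change of the other synthesis genes in it smaller. PGM1, which works in both directions, is not in it. The value combines opposite changes of PYGL and PYGB in both groups, and of UGP2 and GYG1 against GBE1 in OA. PYGL and PYGB weigh the same in it, although PYGB made up 80.1%, 64.9% and 87.2% of phosphorylase counts per kilobase in WT, DNL and OA. The value therefore does not follow the summed phosphorylase level. In OA the scarcer form fell (PYGL, 90.7 to 60.5 CPM) and the main form rose (PYGB, 342 to 388 CPM).

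**Figure D4:**
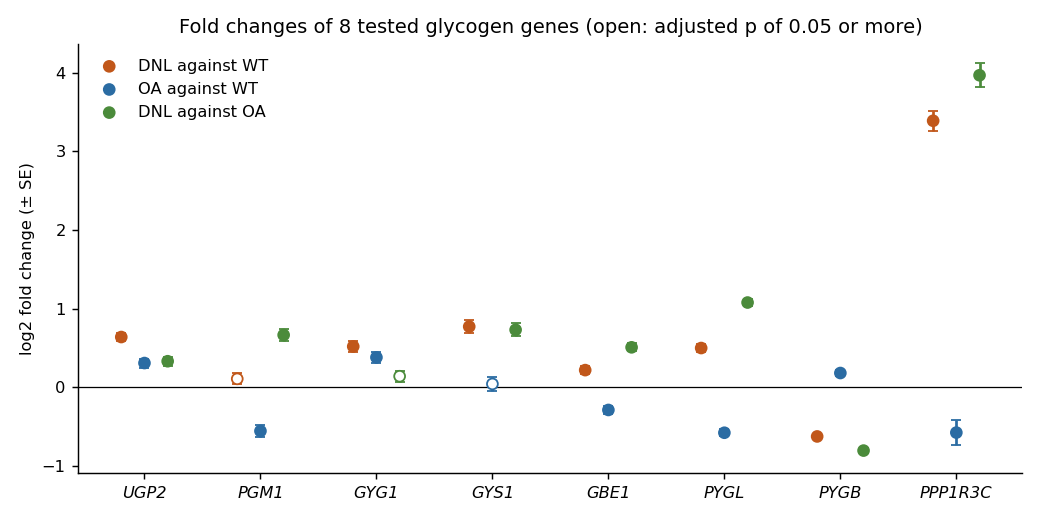
Log2 fold change with its standard error (y axis) of the 8 tested glycogen genes in the 3 comparisons. Filled points passed an adjusted p of 0.05. PPP1R3C reaches 3.39 in DNL against WT and 3.97 in DNL against OA, and PYGL and PYGB lie on opposite sides of 0 in every comparison.

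Patterns most like a member over the 9 samples were sought among 10100 genes averaging 5 CPM or more, by Pearson correlation of log2(CPM + 1). These 9 points form 3 groups, so r describes the order and spacing of the group means. PPP1R3C was closest to OSBP2 (r = 0.998; 2.23, 20.2 and 1.27 CPM in WT, DNL and OA), UGT2B7 (r = 0.996) and TMCC1 (r = 0.996; 53.9, 198 and 43.9 CPM). PYGL was closest to HMGA2 (r above 0.999; 224, 330 and 145 CPM), ABCB4 (r = 0.999) and IGF2 (r = 0.999; 3375, 8959 and 1061 CPM). GYS1 was closest to PAICS (r = 0.996; 278, 365 and 283 CPM), PTPRA (r = 0.992) and TFF1 (r = 0.991).

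The other genes of the pathway were described over a list of 59, of which 56 were tested. In DNL against WT 22 were higher and 14 lower, with a median log2 fold change of 0.13. Scaling by library totals turned this split to 14 higher and 19 lower. In OA against WT 17 were higher and 20 lower (median -0.080). In DNL against OA 28 were higher and 11 lower, or 21 and 20 when scaled by totals. Called were thus 36, 37 and 39 of the 56, beside 53.8%, 60.0% and 62.8% of all genes.

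Phosphorylase kinase, which activates phosphorylase, was called lower in OA in 3 of 5 genes and higher in 0, beside 60.0% of all genes called in that comparison. PHKA2, its liver alpha subunit, measured 99.5 ± 2.55 CPM in WT, 162 ± 4.56 in DNL and 42.7 ± 2.65 in OA. It rose in DNL (log2 fold change 0.71, adjusted p = 1.42e-07) and fell in OA (-1.23, adjusted p = 1.4e-09), as did PYGL. PHKA1, the muscle alpha subunit, fell in OA by 0.92 on the log2 scale and PHKB, the beta subunit, by 0.49. In DNL, 3 of the 5 genes were higher and 1 lower, beside 53.8% of all genes called, but only 1 and 1 under scaling by totals. PHKA1 had -0.20 (adjusted p = 0.0306) in DNL, and leaving out any 1 of 5 libraries ended that call.

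Of 8 tested subunits of protein phosphatase 1, DNL had 3 higher and 2 lower than WT, and OA had 3 higher and 1 lower. Over all genes, 53.8% and 60.0% were called in these comparisons. PPP1R3B, the liver glycogen-targeting subunit, was scarce at 0.292 ± 0.122 CPM in WT, 2.63 ± 0.955 in DNL and 1.32 ± 1.02 in OA. It rose in DNL (log2 fold change 3.12, SE 0.61, adjusted p = 0.000936). Its OA call (1.95, adjusted p = 0.0224) was lost in limma-voom (adjusted p = 0.169), without OA replicate 3 (0.117) or 1 (0.061) and without WT replicate 2 (0.071) or 3 (0.0558). Per kilobase of merged exons, PPP1R3C at 34.3 CPM per kb in DNL stood above the other targeting subunits, of which PPP1R3E was next at 2.81 CPM per kb. In WT these values were 3.26 and 3.48 CPM per kb. PPP1R3G, a further targeting subunit, passed in neither comparison with WT. PPP1R3E fell in OA from 19.3 ± 1.46 to 8.33 ± 1.35 CPM (adjusted p = 2.27e-06). PPP1CB and PPP1CC, catalytic subunits, rose in DNL by 0.48 and 0.45 on the log2 scale, and PPP1CA fell by 0.41.

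Of the other enzymes, PGM2L1, which makes glucose 1,6-bisphosphate, rose from 7.92 ± 0.530 CPM in WT to 18.7 ± 0.720 in DNL and 54.7 ± 2.15 in OA (log2 fold changes 1.24 and 2.79, adjusted p = 6.03e-08 and 3.56e-11). PGM2, a phosphopentomutase related to PGM1, rose in DNL (log2 fold change 0.45, adjusted p = 0.0197), a call lost under scaling by totals (0.28, adjusted p = 0.115), without DNL replicate 3 (0.115) and without WT replicate 2 (0.0685) or 3 (0.0603). STBD1, which tethers glycogen for delivery to lysosomes, rose in OA from 12.2 ± 1.21 to 58.1 ± 0.300 CPM (log2 fold change 2.24, adjusted p = 2.52e-10). GAA, the lysosomal glucosidase, fell in OA by 0.70 on the log2 scale. GYG2, the liver glycogenin, fell in OA from 25.8 ± 3.17 to 12.1 ± 1.47 CPM (adjusted p = 2.31e-06), and in DNL its log2 fold change of -0.25 did not pass (adjusted p = 0.062). EPM2A, the glycogen phosphatase laforin, fell in OA from 5.44 ± 1.22 to 1.59 ± 0.269 CPM (adjusted p = 3.29e-05). EPM2AIP1, which binds laforin, rose in DNL (0.60) and in OA (0.30) on the log2 scale.

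Supply and release of glucose 6-phosphate had 2 genes higher and 2 lower of 7 in DNL, and 1 higher and 3 lower in OA. The shares called over all genes were 53.8% in DNL and 60.0% in OA. HK2, a hexokinase, rose in DNL from 325 ± 2.87 to 412 ± 8.95 CPM and fell in OA to 191 ± 6.64 CPM. HK1, low in WT at 0.858 ± 0.187 CPM, rose in DNL (log2 fold change 2.12) and in OA (3.20). G6PC1, the phosphatase that releases free glucose, was lower in DNL (34.3 ± 2.76 CPM) and in OA (1.82 ± 0.0771 CPM) than in WT (79.3 ± 1.73 CPM). GCKR fell in OA from 38.0 ± 2.30 to 14.1 ± 1.90 CPM. SLC37A4, the glucose 6-phosphate transporter, was uneven within groups and was not called.

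A list of 9 genes that use UDP-glucose or belong to the neighbouring galactose and UDP-sugar routes had 5 higher and 1 lower in DNL (3 and 2 under scaling by totals) and 2 higher and 5 lower in OA. Over all genes, 53.8% were called in DNL and 60.0% in OA. GALK1 and GALM, which act on galactose, and UXS1, which acts on UDP-glucuronate, were among the 5 higher in DNL and among the 5 lower in OA. Both GALM calls were lost under scaling by totals (adjusted p = 0.264 in DNL and 0.105 in OA). The OA call of GALM was also lost without OA replicate 3 (0.0722) and without WT replicate 1 (0.0688) or 2 (0.0526). UGDH, which oxidises UDP-glucose to UDP-glucuronate, measured 704 ± 7.34 CPM in WT, 422 ± 5.45 in DNL and 865 ± 23.7 in OA (log2 fold changes -0.74 and 0.30, adjusted p = 1.76e-09 and 6.42e-06). UGCG, which glucosylates ceramide, rose in OA from 29.8 ± 1.51 to 96.0 ± 4.03 CPM. Among kinases that act on the synthase or sense energy, PASK rose in both groups (log2 fold changes 1.33 and 1.25). GSK3A, an inhibitor of the synthase, fell in DNL by 0.36 and rose in OA by 0.27 on the log2 scale, while GSK3B rose in both (0.37 and 0.32). PRKAA1 and PRKAB2, subunits of AMP-activated kinase, fell in OA by 1.06 and 0.76 on the log2 scale. PRKAA2 and PRKAB1, the alternative alpha and beta subunits, were higher in OA (log2 fold changes 0.37 and 0.22, adjusted p = 3.36e-05 and 0.0141), the latter not called without WT replicate 2 (adjusted p = 0.073). In the glucagon and cyclic AMP branch 0 of 8 genes were called higher and 4 lower in DNL, beside 53.8% of all genes called. These counts were 0 and 6 under scaling by totals and 1 and 4 under DESeq2's size factors. In OA 1 was higher and 3 lower (2 and 3 under either of these scalings), beside 60.0% of all genes called. ADCY9, an adenylyl cyclase, fell in DNL by 0.27 and in OA by 0.64 on the log2 scale. ADCY6, another adenylyl cyclase, fell in DNL (log2 fold change -0.245) but rose in OA (0.33). PDE4D, a phosphodiesterase, had -0.38 in both. PRKACA, a catalytic subunit of protein kinase A, had -0.39 and -0.43, though its DNL call was lost without DNL replicate 1 (adjusted p = 0.0508). GCGR, the glucagon receptor, did not pass the filter, with at most 0.0546 CPM on average in a group.

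**Figure D5:**
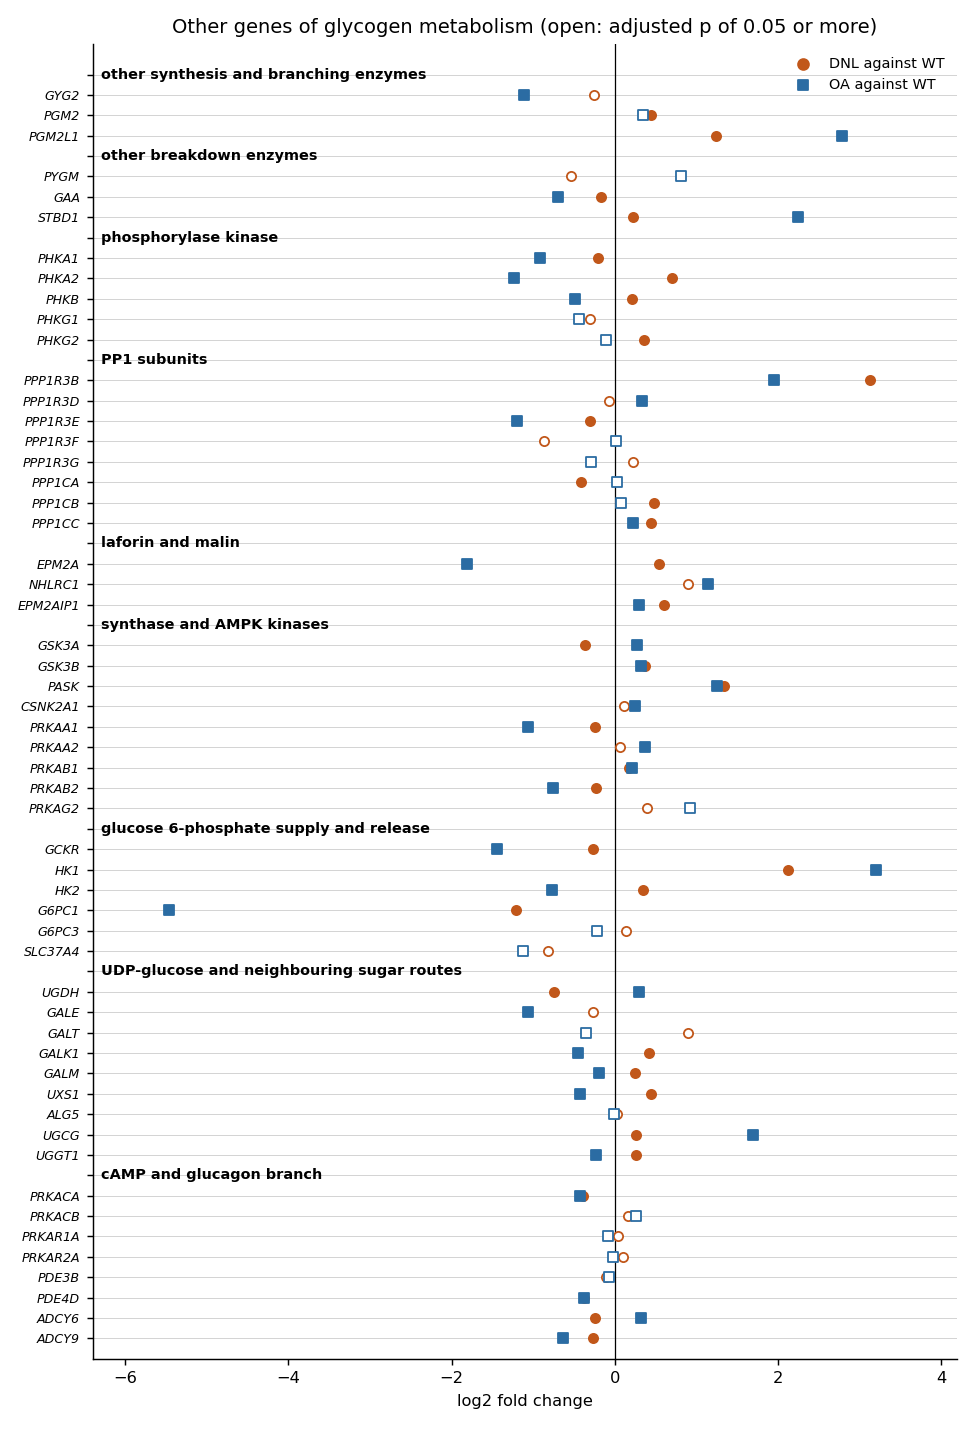
Log2 fold change (x axis) of other tested genes of glycogen metabolism in DNL against WT (circles) and OA against WT (squares), grouped by role. Filled symbols passed an adjusted p of 0.05. PHKA2 and HK2 lie right of 0 in DNL and left of 0 in OA, PGM2L1 and STBD1 are far to the right in OA, and G6PC1 reaches -5.46 in OA.

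Because several members are HIF targets, 18 hypoxia targets outside glycogen metabolism were set beside them. This list was chosen with earlier results of these data known, so its counts are a description only. All 18 were higher in DNL than in WT, with a median log2 fold change of 1.92, or 17 of 18 under scaling by totals, where KDM4B was not called. In OA 11 were higher and 5 lower (median 0.45), and in DNL against OA 13 were higher and 0 lower, or 13 and 3 under scaling by totals. Over all genes tested, 27.1% were higher and 26.8% lower in DNL against WT. These shares were 30.4% and 29.7% in OA against WT and 31.9% and 30.9% in DNL against OA. NDRG1 rose from 23.5 ± 0.919 CPM in WT to 184 ± 12.1 in DNL and 127 ± 8.68 in OA. BNIP3L, a mitophagy receptor, rose from 43.8 ± 2.13 to 175 ± 2.78 CPM in DNL and 57.8 ± 2.79 CPM in OA. P4HA1, a collagen prolyl hydroxylase, measured 122 ± 2.56 CPM in WT, 355 ± 8.49 in DNL and 79.7 ± 7.35 in OA. ADM, the peptide adrenomedullin, rose from 9.53 ± 0.889 CPM to 69.6 ± 3.14 in DNL and 28.9 ± 4.15 in OA. The part of the hypoxia response in the values of the glycogen genes was not tested.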

How the data were processed

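Total RNA of 9 HepG2 samples was depleted of ribosomal RNA and made into stranded libraries, per the labels' protocols. The authors deposited estimated counts by gene. The submitters' processing notes name kallisto 0.48.0, FastQC 0.11.9 and the build GRCh38. The sources used here do not give the annotation or strand setting, so reads of overlapping genes may be split between them. Of 19317 Ensembl identifiers, 19316 matched a symbol and 19272 GENCODE release 29, the source of gene coordinates and lengths. Counts were rounded, filtered with filterByExpr, scaled by TMM and tested with edgeR 4.0.16 (robust estimateDisp and glmQLFit, then glmQLFTest) in R 4.3.3, in 1 fit of all 9 samples. Genes were called at an adjusted p under 0.05 over 13636 genes. SE is derived from the F statistic. The common dispersion was 0.0112. Replicate pairs differed by more than sampling noise (chi-square per degree of freedom 5.44 to 16.6). The procedure was tested on simulated counts in which a small part of the genes was changed, in DNL only. Most genes were called in the real data, so that check does not cover how the scaling behaves here. Intervals and limits cover counting error only.

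The members, lists and tests were chosen with earlier results of these data known. Genes were named by a rule: all members, up to 3 called genes with the smallest adjusted p per list and comparison, up to 3 called hypoxia targets, the 3 genes most like GYS1, PYGL and PPP1R3C, and isozymes of members. SLC37A4, GCGR, GALK1, GALM, PRKAA2, PRKAB1, PRKACA and KDM4B fall outside this rule and were chosen after their values were seen. Some genes counted in the lists are not reported here. Alternatives were other scalings and filters, DESeq2 1.42.0, limma-voom (limma 3.58.1), a fit of 2 groups only, a replicate block and leaving out each sample.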

Additional observations from a re-analysis of the deposited data

How the results depend on the processing

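Of 408 values of the 24 member fold changes under 17 alternatives, 400 kept their direction and side of the threshold, 4 lost the call, 1 gained it and 3 changed sign. None of the 3 was called: PGM1 in DNL against WT (-0.060) and GYG1 in DNL against OA (-0.093), both scaled by library totals, and GYS1 in OA against WT without WT replicate 3 (-0.018). With 1 sample left out, the GYS1 value lay between -0.018 and 0.106. Under scaling by totals the median over all genes moved by -0.17 in DNL against WT and -0.23 in DNL against OA (log2), and 6 members were called in each instead of 7. Leaving out a sample gave 7 called members in DNL against WT, 6 to 7 in OA against WT and 7 to 8 in DNL against OA. For the wider list these ranges were 26 to 38, 33 to 38 and 36 to 40 called genes, and for hypoxia targets 18, 16 to 17 and 13 to 14.

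The PYGL share of phosphorylase in WT, DNL and OA was 26.4%, 43.9% and 17.5% with the longest annotated transcript and 20.9%, 36.6% and 13.5% with no length correction. Leaving out a sample gave 19.6% to 20%, 34.9% to 35.1% and 12.6% to 12.9%. The log2 difference of synthesis minus breakdown ranged from 0.472 to 0.510 in DNL and 0.253 to 0.308 in OA.

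Replicate numbers are shared by the groups, but same-numbered samples did not deviate together (correlations -0.0176 to 0.0534). With the replicate block 7 members were called in each comparison, as without it, and 33, 38 and 40 genes of the wider list in DNL against WT, OA against WT and DNL against OA. Low levels, as of PPP1R3B and PYGM, limit precision in the shallow OA libraries.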
